A study of Homo sapiens with 12 samples.

Results

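Very long protein-coding genes, those whose annotated body covers 500 kb or more, were followed in HEK293 cells depleted of the nuclear RNA-binding proteins SAFB1, SAFB2 and SLTM. The members were selected on 2 criteria, an annotated span of at least 500 kb (GENCODE v44, GRCh38, the distance between the first and the last annotated base of the gene) and a measured mean of at least 1 CPM (the usual unit of counts scaled to the total of each library) over the 12 libraries. Of 58780 gene IDs in the files, 322 were coding genes of that span, 173 of them reached the level, and 170 remained after ANK2, ANK3 and CELF2 were left out by name. All 170 passed the filter on low counts, which asked for 10 counts summed over the libraries. Because the level criterion averaged all groups, 167 members were at 1 CPM or more in every group, and ASTN2, SYN3 and MTUS2 were under it in at least 1 group. The members' levels were therefore partly fixed by the selection, and their counts are read beside those of the other genes.

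The data analysed here were 12 libraries of poly(A)-selected, strand-specific RNA from HEK293, a human embryonic kidney cell line, here the Flp-In T-REx line. There were 3 libraries in each of 4 groups: triple KD (small interfering RNAs against SAFB1, SAFB2 and SLTM together), SAFB1 KD, SLTM KD and control (a negative control siRNA), and in the study's methods the single knockdowns carried added negative control siRNA so that the total amount matched. A knockdown in a dividing culture leaves part of each target, and each group therefore compares lower with normal amounts of the RNA of its targets. In SAFB1 KD the RNA of SAFB2 and SLTM, which were not targeted there, stood at 166% and 120% of control. Protein was not measured in these libraries. A knockdown of SAFB2 alone was not analysed here. The 3 libraries of a group were described as biological replicates, and the sources used here do not say whether they came from separate cultures. If they did not, p-values measure only the spread between these libraries, which may be technical.

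Each protein was targeted by 1 siRNA, and the sense strands are given 5′ to 3′ because every change below rests on these 3 reagents. Capitals mark the 7 bases that would pair with bases 2 to 8, the seed, of the guide strand:
SAFB1 siRNA: ggaccaagaugAUCAGAAatt
SAFB2 siRNA: ggacggucgugAUGGAUAatt
SLTM siRNA: gcauuagaauaAUUCGUGatt
The targets were lowered in the groups named for them. SAFB, which encodes SAFB1, stood at 16.5% of its control mean in triple KD and at 19.5% in SAFB1 KD. SLTM stood at 21.6% in triple KD and at 17.7% in SLTM KD, and SAFB2 at 23.1% in triple KD but at 166% in SAFB1 KD. Total counts ran from 56856228 to 75533510 per library, and no library had a scaling factor outside 0.992 to 1.01. Of the 8 HEK293 markers, VIM, NEFL, INA, CDH2 and LIN28B were each above 50 CPM in every group, and EYA1 (9.79 CPM in triple KD and 11.2 CPM in control), PAX2 (3.66 and 4.66 CPM) and NEFM (1.22 and 1.71 CPM) were lower. VIM was at 1077 CPM in triple KD and 1094 CPM in control. Of the markers of other cell types, CDX2 alone was above 1 CPM (29.7 CPM in triple KD and 28.7 CPM in control), and the other 12 were under 0.3 CPM in every group.

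Genes of this size consist almost entirely of intron. RNA polymerase needs hours to cross one, during which cryptic splice sites and poly(A) sites in the introns have to be passed over, and many such genes are active in neurons, where they encode adhesion molecules, synaptic scaffolds and channels. Several lie at common fragile sites, chromosomal regions that break when replication is slowed. SAFB proteins bind purine-rich RNA through an RNA recognition motif and sit on nascent transcripts, and SLTM is a relative with the same domain order.

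The 170 members spanned 500.047 to 2305 kb with a median of 699.888 kb, and 28 of them spanned 1000 kb or more. Their exons took up little of that: a median of 12.3 kb of annotated exon, or 1.75% of the span, in a median of 29 separate exon blocks. The longest stretch without an exon was 28.6 kb in the most compact member and 768 kb in the least compact, with a median of 151 kb. That exonic length was still above the median of 5.53 kb in 12170 shorter coding genes at 1 CPM or more. The gene bodies of the members were poorer in G and C, with a median of 38.9%, against 43.2% in 9988 coding genes of 10 to 500 kb. The letters GAAGA, a purine-rich motif of the kind SAFB proteins bind, occurred on the sense strand, which reads as the RNA does, 1.47 times per kb (median of the members) and 1.28 times per kb in those shorter genes. The members were also less abundant, with a median of 16.7 CPM, against 35.9 CPM in shorter coding genes.

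CNTNAP2, which encodes a neurexin-family cell adhesion protein, was the longest member (2305 kb, chr7:146116002-148420998, plus strand). The other members among the 10 longest were, in order, PTPRD (a receptor tyrosine phosphatase, 2299 kb), DMD (dystrophin, which ties actin to the membrane of muscle, 2242 kb), LRP1B (a lipoprotein receptor relative, 1899.6 kb), ROBO2 (a receptor for Slit guidance cues, 1743 kb), NRXN3 (a presynaptic neurexin, 1698 kb), PDE4D (a cyclic AMP phosphodiesterase, 1553 kb), FHIT (a dinucleoside hydrolase at a fragile site, 1504 kb), CCSER1 (1478 kb) and MAGI2 (a synaptic scaffold, 1437 kb). Their changes in triple KD ran in both directions. CNTNAP2, CCSER1, NRXN3 and MAGI2 fell, ROBO2 and DMD rose, and PTPRD, LRP1B, PDE4D and FHIT did not pass the test, with log2 fold changes of 0.01, -0.01, 0.02 and -0.21.

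In triple KD, very long genes changed in both directions and more of them fell than rose. Of the 170 members, 50 (29.4%) were called higher and 72 (42.4%) lower than in control by edgeR's quasi-likelihood test at an adjusted p under 0.05. Over all 26688 genes tested the shares were 19.4% higher and 20.9% lower, and among the 12343 coding genes at 1 CPM or more, the nearer background, 30.9% higher and 36.2% lower. The excess over that background was therefore small and lay among genes that fell. The median log2 fold change of the members was -0.07, against -0.02 in coding genes at 1 CPM or more and 0.00 in all genes tested. It was -0.00286 in the 134 members at 5 CPM or more and -0.0230 when the limit on span was 300 kb (514 genes), so the gap depended on both limits. The size of change, regardless of sign, had a median of 0.23 in the members and 0.16 in coding genes at 1 CPM or more. Among those called, 4 of the 170 members were higher and 18 lower by more than 1.5-fold, against 2.1% and 4.31% of coding genes at 1 CPM or more. In bulk RNA, fewer cells expressing a gene and less RNA per cell cannot be told apart, and counts summed over a gene do not show whether a change concerned whole or shortened transcripts.

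SAFB1 KD alone called fewer members, again with more decreases. There were 12 higher (7.06%) and 24 lower (14.1%), against 5.04% and 4.62% of all genes tested and 9.85% and 7.96% of coding genes at 1 CPM or more. The 12 higher became 7 with no filter on low counts and 6 without control replicate 3 or SAFB1 KD replicate 2. SLTM KD called 10 members higher (5.88%) and 9 lower (5.29%), and the 10 higher became 4 with no filter, 17 with upper-quartile scaling and 5 without control replicate 1 or SLTM KD replicate 2. Over all genes tested SLTM KD gave 3.6% higher and 5.65% lower, and over coding genes at 1 CPM or more 5.91% and 11.3%. Members were less abundant than those coding genes, and shares within classes of level are given further on. These differences from the background were not tested. No member called in either single knockdown moved by more than 1.5-fold, where 0.0729% (higher) and 0.219% (lower) of coding genes at 1 CPM or more did so in SAFB1 KD, and 0.0567% and 0.0891% in SLTM KD. The 3 comparisons share the control libraries, so the calls they have in common are listed here and carry no test.

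The triple KD also differed from each single knockdown across these genes. Against SAFB1 KD, 48 members (28.2%) were higher and 55 (32.4%) lower in triple KD, where 16.2% and 18.6% of all genes tested were called. Against SLTM KD, 44 (25.9%) were higher and 67 (39.4%) lower, where the shares of all genes tested were 17.5% and 18.8%. The shares among coding genes at 1 CPM or more, the nearer background, were not taken for these comparisons. Whether the members exceed that background here was therefore not tested. CDH4 fell most against both, by 1.73 on the log2 scale against SAFB1 KD and by 1.5 against SLTM KD.

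**Figure D1:**
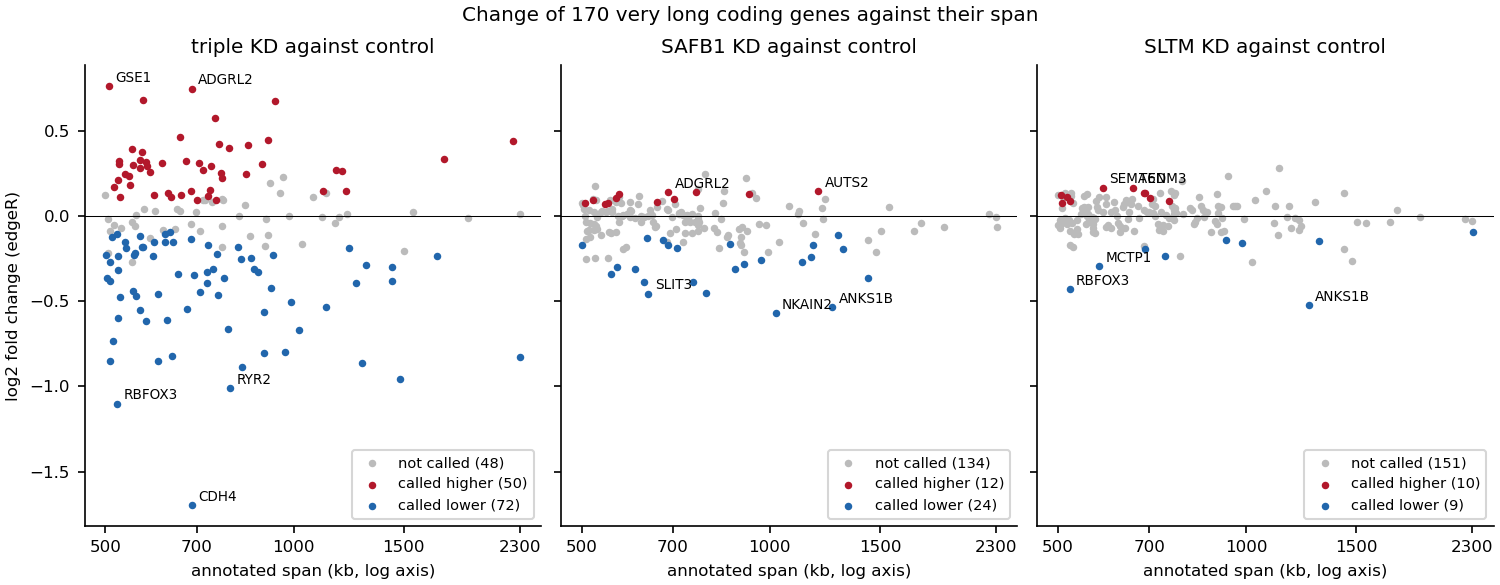
Each point is one of the 170 members, with its annotated span in kb on a log axis and its log2 fold change on the other axis, in each knockdown against control (triple, SAFB1, SLTM); red points were called higher, blue points lower and grey points were not called. In triple KD the 50 red and 72 blue points lie along the whole range of spans, and in SAFB1 KD 8 of the 24 blue points lie at 1000 kb or more.

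Span itself was weakly related to the change. Across the 170 members, the rank correlation of log2 fold change with span was -0.02 in triple KD, -0.20 in SAFB1 KD and -0.08 in SLTM KD (Spearman's coefficient, given as a description, since genes of the same libraries are not independent replicates). Pearson's r with the logarithm of span was -0.05 in triple KD, -0.17 in SAFB1 KD and -0.12 in SLTM KD. Without the 10 longest members the rank correlation was -0.01 in triple KD, -0.19 in SAFB1 KD and -0.04 in SLTM KD. The same measure was taken in each library, as the log2 ratio to the mean of the control libraries with 0.1 CPM added. It lay between -0.03 and 0.00 in the triple KD libraries, between -0.19 and -0.17 in the SAFB1 KD libraries and between -0.10 and -0.05 in the SLTM KD libraries. Control libraries, each set against the other 2, gave -0.03 to 0.05. The SAFB1 KD libraries and, less far, the SLTM KD libraries therefore lay below the control libraries in this measure, while the triple KD libraries lay within the control range. Over all 12340 coding genes at 1 CPM or more without the 3 left out, the rank correlation with span was 0.00 in triple KD, -0.06 in SAFB1 KD and 0.05 in SLTM KD.

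Classes of span showed where the SAFB1 KD relation lay. In SAFB1 KD, 6.32% of coding genes under 10 kb were called lower, 6.63% of those of 10 to 50 kb, and 10.03 to 10.2% of those of 50 to 100 kb and of 200 to 500 kb, with 9.71% in between. Among members of 500 to 1000 kb it was 16 of 142 (11.3%) and among members of 1000 kb or more 8 of 28 (28.6%). In triple KD the shares called lower were 34.7% under 10 kb, 36.3% at 200 to 500 kb, 43.0% at 500 to 1000 kb and 39.3% at 1000 kb or more. The share called higher in triple KD was 21.4% at 1000 kb or more, 31.0% at 500 to 1000 kb and 34.3% at 200 to 500 kb. In SLTM KD none of the 28 longest members was called higher and 3 were called lower, which were CNTNAP2, ANKS1B and PRKG1. At 28 genes a class is small, and no test of the difference between classes was made.

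**Figure D2:**
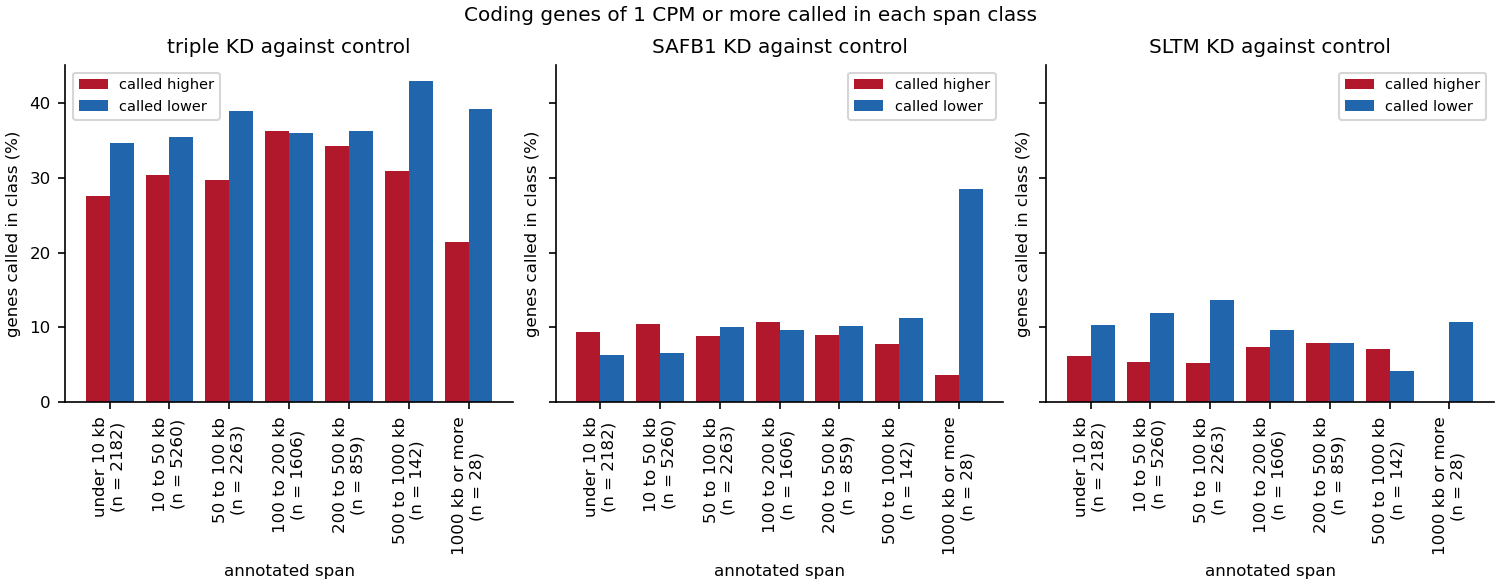
Bars give the share of coding genes at 1 CPM or more called higher (red) and lower (blue) in each class of annotated span, for each knockdown against control, with the number of genes in each class under the axis; the last 2 classes are the members. In SAFB1 KD the blue bar reaches 28.6% at 1000 kb or more (n = 28), against 6.32% under 10 kb.

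The 8 members of 1000 kb or more called lower in SAFB1 KD were NKAIN2, ANKS1B, RBMS3, SPAG16, ERBB4, PRKG1, ROBO1 and TBC1D5. All but ERBB4 and ROBO1 were also called lower in triple KD. ERBB4, a neuregulin receptor, had a log2 fold change of -0.24 ± 0.047 (SE, adjusted p = 0.000149) in SAFB1 KD and -0.04 ± 0.046 (SE, adjusted p = 0.538) in triple KD. ROBO1, a Slit receptor like ROBO2, was at 175, 176 and 168 CPM in triple KD, 126, 129 and 126 CPM in SAFB1 KD, 149.6, 151 and 147 CPM in SLTM KD, against 142, 144 and 144 CPM in control. It was lower than control in every SAFB1 KD library and higher in every triple KD library, and triple KD exceeded SAFB1 KD by 0.44 ± 0.023 (SE, adjusted p = 4.41e-25). RARB, a retinoic acid receptor of 910.0 kb, was the other member called in opposite directions this way. It was at 7.85, 8.30 and 7.15 CPM in triple KD, 4.37, 4.51 and 5.27 CPM in SAFB1 KD, 5.45, 5.45 and 5.17 CPM in SLTM KD, against 5.49, 6.26 and 5.36 CPM in control, so that its SAFB1 KD libraries were the lowest group and its triple KD libraries the highest. The log2 fold change of RARB was -0.28 ± 0.08 (SE, adjusted p = 0.0127) in SAFB1 KD and 0.44 ± 0.073 (SE, adjusted p = 5.27e-07) in triple KD, and the first of these calls was lost without SAFB1 KD replicate 1 or 2 or without control replicate 2.

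Level was more closely related to the change than span was in triple KD and SAFB1 KD. In SLTM KD both relations were weak, with rank correlations of 0.09 for level and -0.08 for span. Members at low level tended to be lower in triple KD, and abundant members higher: the rank correlation of log2 fold change with the mean CPM over the 12 libraries was 0.39 in triple KD, 0.37 in SAFB1 KD and 0.09 in SLTM KD (n = 170 genes, which share their libraries). By library it was 0.38 to 0.39 in triple KD, 0.29 to 0.39 in SAFB1 KD, 0.07 to 0.13 in SLTM KD and -0.04 to 0.07 in control libraries set against the other 2. Of the 36 members at 1 to 5 CPM, 22 (61.1%) were called lower in triple KD and 2 (5.56%) higher, PDE4B and TENM4. Among 1504 shorter coding genes of that level the shares were 28.1% and 17.6%. Of the 26 members at 50 CPM or more, 5 (19.2%) were called lower and 14 (53.8%) higher, against 36.7% and 37.5% of 4841 shorter coding genes. At 5 to 20 CPM, 40.0% of the members and 38.2% of the shorter genes were called lower. The median log2 fold change in triple KD was -0.32 in members at 1 to 5 CPM and 0.12 in members at 50 CPM or more, against -0.07 and 0.00 in shorter genes of those levels. In SAFB1 KD, 16.7% of the members at 1 to 5 CPM were called lower, against 4.79% of shorter genes, and at 50 CPM or more 38.5% were called higher and 7.69% lower, against 16.4% and 7.50%. In SLTM KD the share called lower was 5.56% at 1 to 5 CPM, against 1.66% of shorter genes, and at 50 CPM or more 23.1% were called higher and 7.69% lower, against 8.59% and 15.9%. These classes hold few called members in the single knockdowns, with 10 and 6 called higher at 50 CPM or more and 6 and 2 called lower at 1 to 5 CPM. Level and span were themselves nearly unrelated over the members (rank correlation -0.09). The mean CPM contains the libraries compared, and the part that this has in the relation was not tested.

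**Figure D3:**
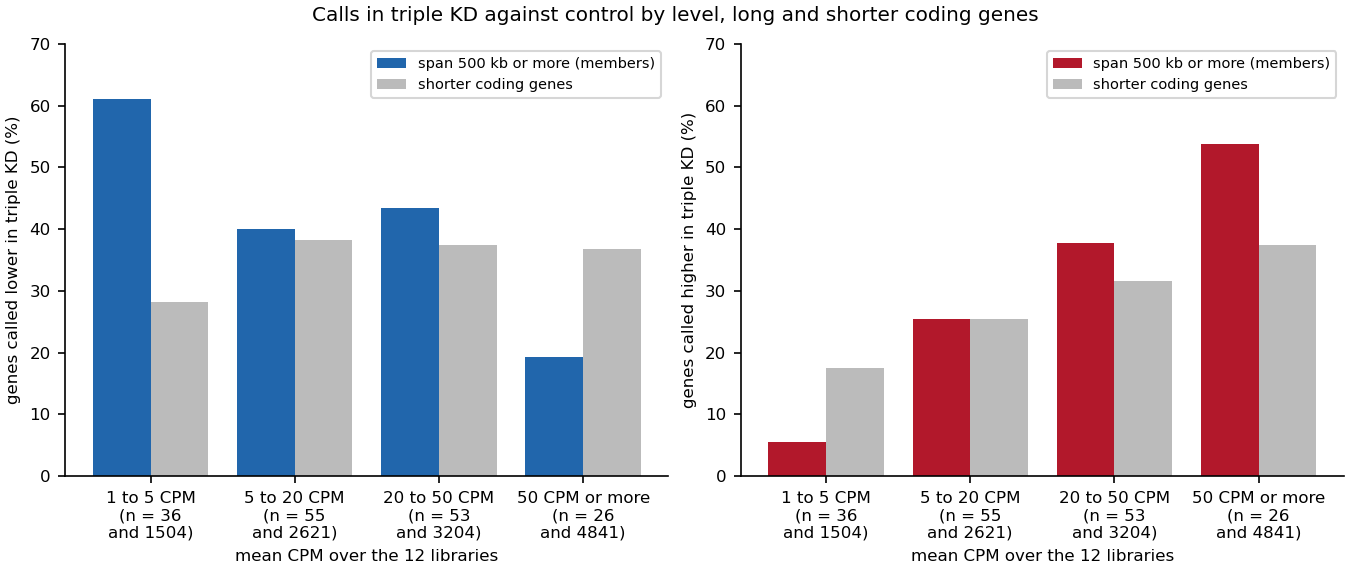
Bars give the share of genes called lower (left) and higher (right) in triple KD against control by mean CPM over the 12 libraries, coloured for the members and grey for coding genes under 500 kb, with both numbers of genes under the axis. At 1 to 5 CPM 61.1% of the members were called lower, against 28.1% of shorter genes, and at 50 CPM or more 53.8% of the members were called higher, against 37.5%.

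Base composition moved with the change in SAFB1 KD. The rank correlation of log2 fold change with the GC content of the gene body was 0.30 in SAFB1 KD, 0.14 in triple KD and 0.12 in SLTM KD, so members richer in A and T had lower values. GC content also fell with span over the members (rank correlation -0.22), and the share of each in the SAFB1 KD relation was not tested. Neither GAAGA per kb nor annotated exon length followed the change in any knockdown, with rank correlations between -0.03 and 0.05 for both. The longest stretch without an exon gave -0.01 in triple KD, -0.15 in SAFB1 KD and -0.16 in SLTM KD. The number of exon blocks gave 0.23 in SLTM KD, 0.08 in triple KD and -0.02 in SAFB1 KD. The number of CG dinucleotides in the promoter (300 bases, RefSeq, 144 members matched) gave 0.03 in triple KD, 0.16 in SAFB1 KD and 0.13 in SLTM KD.

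The members were sorted into lists by role, and the count of each list stands beside 29.4% higher and 42.4% lower over the 170 members in triple KD. The lists are small and were not tested against the rest. Adhesion molecules and synapse organizers formed the largest list, and in triple KD 12 of its 22 members fell (54.5%), 8 rose (36.4%) and 2 were not called, with a median log2 fold change of -0.19. CDH4, R-cadherin, a calcium-dependent adhesion protein of brain and kidney, fell most of all members. CDH4 (chr20:61252261-61940617, plus strand, 688 kb) was at 6.08, 6.15 and 5.92 CPM in triple KD, 19.5, 20.5 and 20.4 CPM in SAFB1 KD, 17.5, 16.9 and 16.95 CPM in SLTM KD, against 19.2, 19.4 and 20.2 CPM in control. Every triple KD library lay well below every other library and the SLTM KD libraries also lay below control, whereas SAFB1 KD and control overlapped. The log2 fold change was -1.70 ± 0.053 (SE, adjusted p = 1.76e-36) in triple KD, -0.19 ± 0.045 (SE, adjusted p = 0.0016) in SLTM KD and 0.04 ± 0.043 (SE, adjusted p = 0.71) in SAFB1 KD. CNTNAP2 was at 32.03, 31.6 and 32.1 CPM in triple KD, 55.2, 52.8 and 54.1 CPM in SAFB1 KD, 52.3, 54.99 and 52.04 CPM in SLTM KD, against 55.2, 57.6 and 56.9 CPM in control. Every triple KD library lay below every other library, and the log2 fold change was -0.83 ± 0.032 (SE, adjusted p = 1.75e-31) in triple KD and -0.09 ± 0.031 (SE, adjusted p = 0.0436) in SLTM KD, a call lost when single control or SLTM KD libraries were left out.

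Teneurins, large transmembrane proteins that pair across synapses, moved apart from each other. TENM1 (828 kb) fell, with 2.85, 2.43 and 2.51 CPM in the triple KD libraries, against 4.90, 4.75 and 4.70 CPM in the control libraries and a log2 fold change of -0.89 ± 0.089 (SE, adjusted p = 3.89e-13). TENM3 (659 kb) rose, with 127, 128 and 125 CPM in triple KD, 93.1, 99.7 and 98.7 CPM in SAFB1 KD, 104, 106 and 99.5 CPM in SLTM KD, against 90.5, 92.4 and 92.8 CPM in control. Each of the 3 depleted groups had a mean above control for TENM3, and the log2 fold changes were 0.46 ± 0.026 (SE, adjusted p = 8.1e-24) in triple KD, 0.08 ± 0.026 (SE, adjusted p = 0.039) in SAFB1 KD and 0.17 ± 0.026 (SE, adjusted p = 3.44e-06) in SLTM KD. The call in SAFB1 KD did not hold when most single libraries were left out. TENM4 (788 kb), at 4.21 ± 0.405 CPM in triple KD and 3.19 ± 0.230 CPM in control (SD, n = 3 each), had a log2 fold change of 0.40 ± 0.095 (SE, adjusted p = 0.000327).

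ADGRL2, a latrophilin that acts as an adhesion receptor coupled to G proteins, was the second highest of the members. ADGRL2 (chr1:81306147-81993932, plus strand, 688 kb) was at 199, 210.2 and 203 CPM in triple KD, 129, 134 and 138 CPM in SAFB1 KD, 132, 135 and 133 CPM in SLTM KD, against 120.0, 123 and 121 CPM in control. All triple KD libraries were above all others, and both single knockdowns had means above control. The log2 fold change was 0.75 ± 0.024 (SE, adjusted p = 5.76e-36) in triple KD, 0.14 ± 0.024 (SE, adjusted p = 3.04e-05) in SAFB1 KD and 0.13 ± 0.024 (SE, adjusted p = 5.1e-05) in SLTM KD. Its relative ADGRL3 fell in triple KD (-0.33 ± 0.052 SE, adjusted p = 3.15e-07) and in SAFB1 KD (-0.31 ± 0.052 SE, adjusted p = 1.15e-05). SLIT3, a secreted ligand of the ROBO receptors, was at 1.96, 1.82 and 1.67 CPM in the triple KD libraries, against 3.18, 3.28 and 3.15 CPM in the control libraries. It fell in triple KD (-0.82 ± 0.11 SE, adjusted p = 1.16e-09) and in SAFB1 KD (-0.46 ± 0.10 SE, adjusted p = 0.000928), while its receptor genes ROBO1 and ROBO2 rose in triple KD. SDK1, an immunoglobulin adhesion molecule of retinal synapses, fell as well (-0.80 ± 0.043 SE, adjusted p = 2.23e-24 in triple KD and -0.26 ± 0.041 SE, adjusted p = 3.95e-06 in SAFB1 KD). LRRTM4, a postsynaptic leucine-rich protein that binds heparan sulfate proteoglycans, rose (0.42 ± 0.076 SE, adjusted p = 5.24e-06).

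Channels, receptors and transporters counted 9 members, of which 5 fell, 1 rose and 3 were not called in triple KD. RYR2, the calcium release channel of heart muscle and brain, fell most. RYR2 (chr1:237042184-237833988, plus strand, 792 kb) was at 9.37, 11.1 and 10.7 CPM in triple KD, 14.8, 15.7 and 15.6 CPM in SAFB1 KD, 20.8, 21.96 and 20.9 CPM in SLTM KD, against 21.2, 21.7 and 20.2 CPM in control. The groups were ordered triple KD, then SAFB1 KD, then both others together, with no overlap between the first 2 and the rest. The log2 fold change was -1.01 ± 0.051 (SE, adjusted p = 5.29e-26) in triple KD and -0.45 ± 0.048 (SE, adjusted p = 6.25e-11) in SAFB1 KD, and in SLTM KD it was 0.01 ± 0.046 (SE, adjusted p = 0.936). SLC4A4, a sodium bicarbonate cotransporter, had a log2 fold change of -0.38 ± 0.054 (SE, adjusted p = 1.69e-08) in triple KD. ANO5, an anoctamin of muscle, fell in triple KD (-0.23 ± 0.043 SE, adjusted p = 8.87e-06) and in SAFB1 KD (-0.17 ± 0.043 SE, adjusted p = 0.00413).

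**Figure D4:**
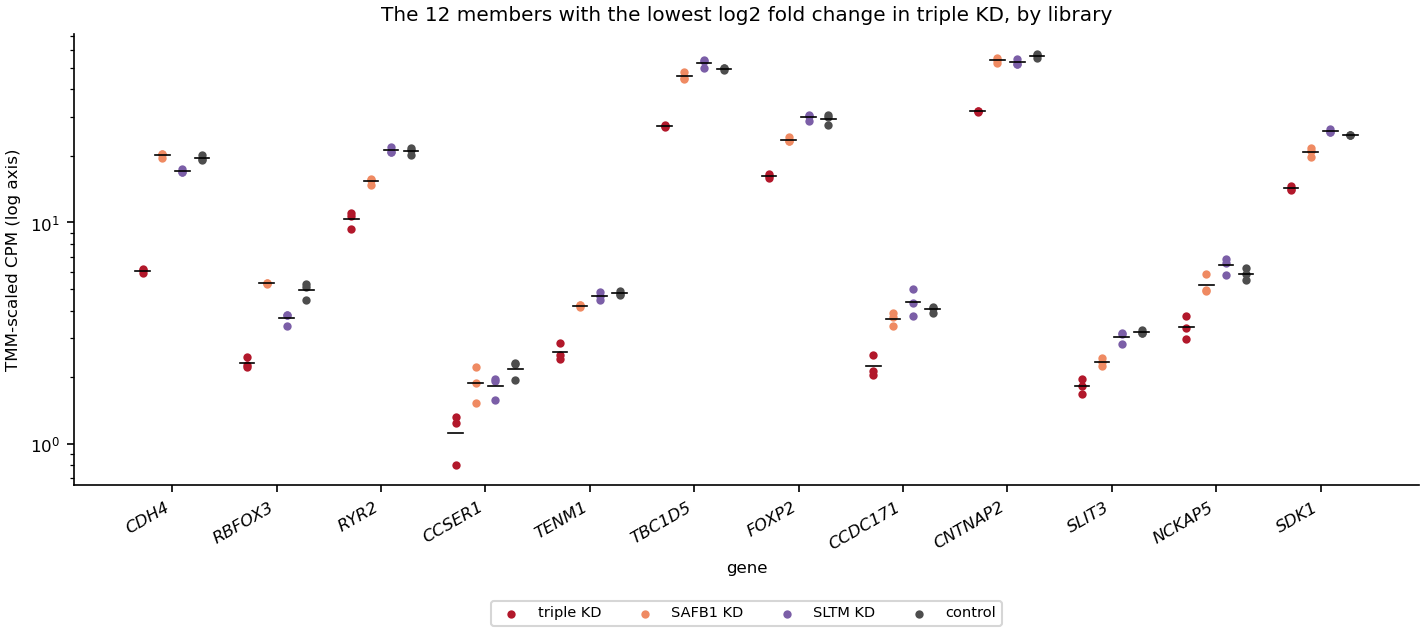
Points are single libraries and short bars group means of TMM-scaled CPM (log axis) for the 12 members that fell most in triple KD relative to control, among those called whose libraries did not overlap, coloured by group. The 3 triple KD libraries lie below the 3 control libraries for every gene shown, and SAFB1 KD lies between them for RYR2, FOXP2 and SLIT3, among others.

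Transcription factors and cofactors were divided evenly, with 5 of 15 members higher and 5 lower in triple KD. FOXP2, a forkhead repressor known for its part in speech, fell: it was at 15.9, 16.6 and 16.1 CPM in triple KD, 23.3, 23.4 and 24.3 CPM in SAFB1 KD, 30.5, 28.9 and 30.3 CPM in SLTM KD, against 30.6, 29.9 and 27.7 CPM in control. The SAFB1 KD libraries lay between triple KD and control, and the log2 fold change was -0.85 ± 0.042 (SE, adjusted p = 2.94e-26) in triple KD and -0.31 ± 0.04 (SE, adjusted p = 2.57e-08) in SAFB1 KD. Its paralog FOXP1 had a log2 fold change of 0.13 ± 0.042 (SE, adjusted p = 0.00754). AUTS2, a cofactor of a Polycomb complex that activates genes in neurons, rose in triple KD (0.26 ± 0.026 SE, adjusted p = 1.53e-13) and in SAFB1 KD (0.15 ± 0.026 SE, adjusted p = 2.96e-05). MECOM, a zinc finger factor of blood stem cells, rose in triple KD (0.32 ± 0.032 SE, adjusted p = 9.47e-13). RORA and CAMTA1 were called lower in SLTM KD alone, with -0.23 ± 0.042 (SE, adjusted p = 4.23e-05) for RORA and -0.16 ± 0.029 (SE, adjusted p = 4.81e-05) for CAMTA1. In triple KD these 2 genes had log2 fold changes of 0.08 and 0.00, neither past the threshold. Of the 5 members listed under chromatin and genome maintenance, 3 fell and none rose: SUPT3H, a SAGA complex subunit (-0.55 ± 0.057 SE, adjusted p = 1.68e-12), SMYD3, a lysine methyltransferase (-0.46 ± 0.061 SE, adjusted p = 2.63e-09), and FBXL17, which in fact encodes an F-box protein of the ubiquitin system (-0.24 ± 0.066 SE, adjusted p = 0.0023). The count depends on how this list was drawn. AUTS2 and GSE1, whose products also act with chromatin complexes, were not in it, and both rose in triple KD.

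All 3 members in the list of RNA-binding proteins fell. CELF2 is also in that list but was left out of the members by name, and it rose in triple KD (0.11, adjusted p = 0.000536). RBFOX3, the neuronal splicing factor known as NeuN, was at 2.47, 2.22 and 2.26 CPM in triple KD, 5.33, 5.29 and 5.32 CPM in SAFB1 KD, 3.42, 3.82 and 3.83 CPM in SLTM KD, against 4.45, 5.26 and 5.10 CPM in control. Its triple KD libraries lay lowest and its SLTM KD libraries between these and the rest, with log2 fold changes of -1.10 ± 0.092 (SE, adjusted p = 5.02e-16) in triple KD, -0.43 ± 0.085 (SE, adjusted p = 0.000229) in SLTM KD and 0.10 ± 0.079 (SE, adjusted p = 0.535) in SAFB1 KD. RBMS3 fell in triple KD (-0.38 ± 0.089 SE, adjusted p = 0.00026) and in SAFB1 KD (-0.36 ± 0.088 SE, adjusted p = 0.00326), and SCAPER in triple KD (-0.22 ± 0.043 SE, adjusted p = 2.57e-05).

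Scaffold and polarity genes gave 3 higher and 5 lower of 13 in triple KD. GPHN, gephyrin, which anchors inhibitory receptors, fell in triple KD (-0.54 ± 0.036 SE, adjusted p = 3e-20) and in SAFB1 KD (-0.14 ± 0.035 SE, adjusted p = 0.00409). NCKAP5 also fell in triple KD (-0.80 ± 0.088 SE, adjusted p = 7.18e-12). PARD3, a cell polarity protein, rose (0.31 ± 0.025 SE, adjusted p = 7.02e-17). ERC1, a scaffold of vesicle release sites, was called in SLTM KD only (0.12 ± 0.023 SE, adjusted p = 8.78e-05). Receptor kinases and phosphatases gave 3 higher and none lower of 5, the 3 being the receptor tyrosine phosphatases PTPRK (0.39 ± 0.026 SE, adjusted p = 2.74e-20), PTPRM (0.24 ± 0.041 SE, adjusted p = 1.01e-06) and PTPRG (0.15 ± 0.024 SE, adjusted p = 4.02e-07). The fourth phosphatase, PTPRD, was at 51.9 ± 0.828 CPM in triple KD and 51.4 ± 1.10 CPM in control (SD, n = 3 each) and was not called.

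Cytoskeletal linkers gave 5 higher and 1 lower of 9 in triple KD. DMD (chrX:31097677-33339609, minus strand) was at 15.1, 16.7 and 16.3 CPM in triple KD, 12.1, 11.4 and 12.3 CPM in SAFB1 KD, 11.4, 11.99 and 11.7 CPM in SLTM KD, against 12.3, 11.5 and 11.8 CPM in control. Each triple KD library was above every other library, and the log2 fold change was 0.44 ± 0.051 (SE, adjusted p = 3.63e-11) in triple KD, 0.01 in SAFB1 KD and -0.02 in SLTM KD. UTRN, utrophin, the relative of dystrophin found in most tissues, spans 568 kb. It was at 138, 139.8 and 132 CPM in the triple KD libraries, against 110.2, 110.1 and 107 CPM in the control libraries, and it rose in triple KD (0.33 ± 0.025 SE, adjusted p = 1.91e-17) and in SAFB1 KD (0.10 ± 0.025 SE, adjusted p = 0.00359). PHACTR1, which binds actin and protein phosphatase 1, rose in triple KD, with 20.3, 20.2 and 19.7 CPM in the triple KD libraries, against 12.7, 12.5 and 12.2 CPM in the control libraries and a log2 fold change of 0.68 ± 0.048 (SE, adjusted p = 3.27e-19). The one member of this list that fell was DIAPH2, a formin that nucleates actin (-0.42 ± 0.045 SE, adjusted p = 2.27e-12).

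Genes of the microtubule, centrosome and cilium gave 3 higher and 4 lower of 9. CCDC171 (-0.85 ± 0.10 SE, adjusted p = 1.3e-10), SPAG16, a protein of the sperm axoneme (-0.53 ± 0.052 SE, adjusted p = 2.1e-13), and DNAH14, a dynein heavy chain (-0.36 ± 0.035 SE, adjusted p = 7.89e-14), fell in triple KD, and MAST4, a microtubule-associated kinase, rose (0.38 ± 0.03 SE, adjusted p = 3.43e-17). GTPase regulators gave 3 higher and 6 lower of 13, with TBC1D5, a Rab GTPase-activating protein of 1288 kb, lowest. TBC1D5 was at 27.02, 27.4 and 27.5 CPM in the triple KD libraries, against 48.99, 49.9 and 50.1 CPM in the control libraries, a log2 fold change of -0.86 ± 0.035 (SE, adjusted p = 1.6e-30). The guanine exchange factor DOCK3 fell (-0.45 ± 0.043 SE, adjusted p = 1.17e-13) and its relative DOCK1 rose (0.18 ± 0.026 SE, adjusted p = 2.1e-08).

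Kinases, phosphodiesterases and second messenger genes gave 5 higher and 4 lower of 14. PRKCA, protein kinase C alpha, fell (-0.27 ± 0.026 SE, adjusted p = 3.27e-14) as did CDK14 (-0.31 ± 0.039 SE, adjusted p = 7.07e-10), and PRKD1, protein kinase D1, rose (0.31 ± 0.038 SE, adjusted p = 2.56e-10). Membrane traffic genes gave 3 higher and 4 lower of 9, among them VPS13B, a lipid transfer protein of the Golgi (-0.31 ± 0.036 SE, adjusted p = 5.13e-11), EXOC4, an exocyst subunit (-0.18 ± 0.025 SE, adjusted p = 4.71e-09), and BCAS3 (0.27 ± 0.032 SE, adjusted p = 5.14e-11). Enzymes gave 6 higher and 5 lower of 17, a list that also holds AFF3, a cofactor of transcription elongation, and PDE4D. HS6ST3, a heparan sulfate sulfotransferase, rose in triple KD, with 20.2, 22.4 and 21.5 CPM in the triple KD libraries, against 14.1, 14.7 and 14.3 CPM in the control libraries and a log2 fold change of 0.57 ± 0.046 (SE, adjusted p = 6.83e-17). ST6GALNAC3, a sialyltransferase, fell in triple KD (-0.47 ± 0.042 SE, adjusted p = 4.1e-15). The 2 members of the ubiquitin list split, with FAF1 higher (0.21 ± 0.025 SE, adjusted p = 1.3e-10) and FBXL17 lower. Some genes stand in 2 lists, and 30 members in none, of which 5 rose and 16 fell.

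**Figure D5:**
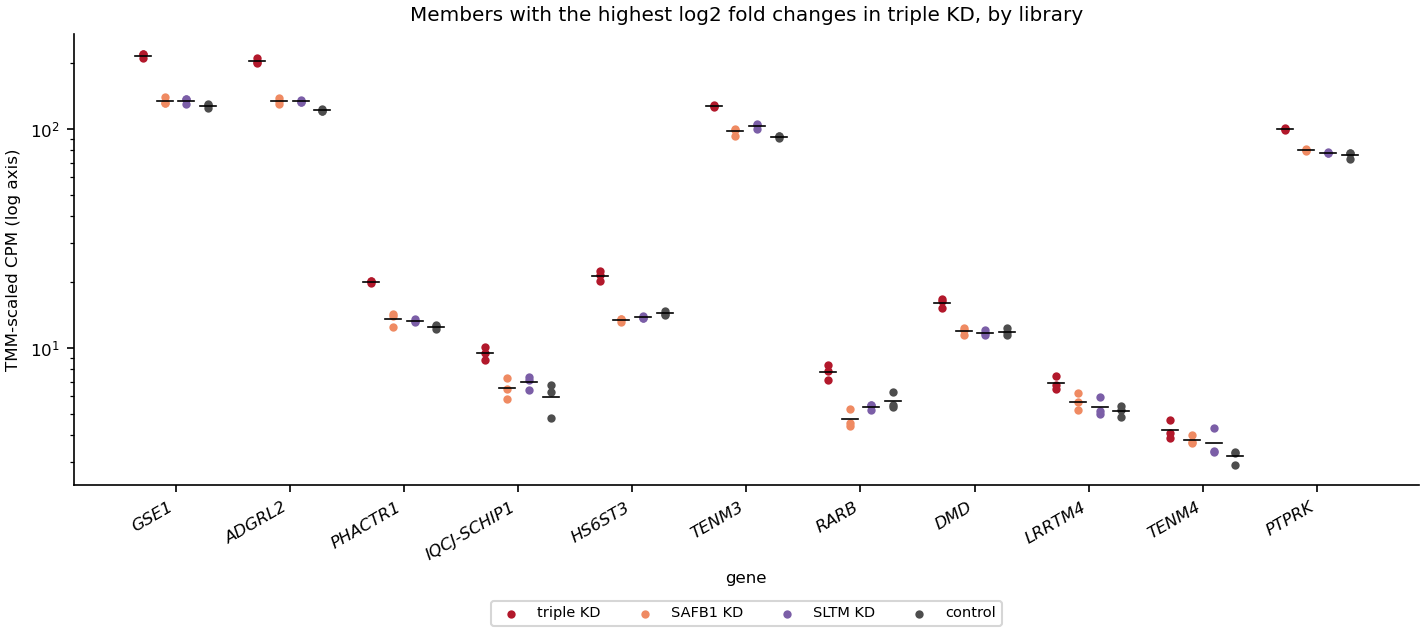
Points are single libraries and short bars group means of TMM-scaled CPM (log axis) for 11 of the 12 members that rose most in triple KD relative to control, among those called whose libraries did not overlap, coloured by group. The 3 triple KD libraries lie above the 3 control libraries for every gene shown, from GSE1 with a log2 fold change of 0.76 to PTPRK with 0.39.

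The highest member belonged to no list. GSE1, a partner of chromatin-modifying complexes with histone deacetylases, spans 507 kb (chr16:85169525-85676204, plus strand). It was at 219, 219 and 211 CPM in triple KD, 131, 139.6 and 132 CPM in SAFB1 KD, 129.9, 137 and 137 CPM in SLTM KD, against 124, 129 and 129 CPM in control. The triple KD libraries lay apart above all others, and the log2 fold change was 0.76 ± 0.024 (SE, adjusted p = 7.41e-36) in triple KD, 0.08 ± 0.025 (SE, adjusted p = 0.0408) in SAFB1 KD and 0.08 ± 0.025 (SE, adjusted p = 0.0345) in SLTM KD. The single-knockdown calls of GSE1 were lost when any of several libraries was left out. IQCJ-SCHIP1, a readthrough of neighbouring genes, had a log2 fold change of 0.67 ± 0.079 (SE, adjusted p = 6.38e-11), but 43.4% of its exonic bases overlap other genes on the same strand, and its count is uncertain because shared reads were not assigned. The same holds to a lesser degree for CCSER1, with 14.4% overlap. CCSER1 was at 1.24, 1.31 and 0.805 CPM in the triple KD libraries, against 2.31, 2.30 and 1.95 CPM in the control libraries (-0.96 ± 0.15 SE, adjusted p = 1.3e-07). SEMA6D, a transmembrane semaphorin, rose in triple KD (0.26 ± 0.044 SE, adjusted p = 1.41e-06) and in SLTM KD (0.17 ± 0.045 SE, adjusted p = 0.00925).

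The 6 members that fell most in SAFB1 KD were NKAIN2, ANKS1B, SLIT3, RYR2, FGF12 and RIMS2, and all of them but RYR2 had a mean under 5 CPM. NKAIN2, which binds the sodium pump, was at 2.12, 2.01 and 2.04 CPM in triple KD, 2.42, 1.87 and 2.32 CPM in SAFB1 KD, 3.18, 2.67 and 2.25 CPM in SLTM KD, against 3.56, 2.97 and 3.28 CPM in control, so that SAFB1 KD and triple KD overlapped below control. Its log2 fold change was -0.57 ± 0.11 (SE, adjusted p = 0.000175) in SAFB1 KD and -0.67 ± 0.11 (SE, adjusted p = 9.86e-07) in triple KD. ANKS1B, a postsynaptic protein that binds the amyloid precursor protein, was at 1.40, 1.65 and 1.51 CPM in triple KD, 1.20, 1.37 and 1.61 CPM in SAFB1 KD, 1.25, 1.39 and 1.55 CPM in SLTM KD, against 1.93, 2.12 and 1.95 CPM in control. It fell in all 3 knockdowns, with -0.39 ± 0.13 (SE, adjusted p = 0.0109) in triple KD, -0.53 ± 0.13 (SE, adjusted p = 0.00362) in SAFB1 KD and -0.52 ± 0.13 (SE, adjusted p = 0.00495) in SLTM KD, though the call in triple KD was lost without control replicate 2 or triple KD replicate 1 and that in SLTM KD without SLTM KD replicate 1. PRKG1, the cyclic GMP-dependent kinase, was the only other member lower in all 3. FGF12, an intracellular partner of sodium channels, fell in SAFB1 KD (-0.39 ± 0.078 SE, adjusted p = 0.000239), as did RIMS2, a scaffold of the synaptic vesicle release site (-0.39 ± 0.087 SE, adjusted p = 0.00123). The call for RIMS2 in triple KD (-0.23 ± 0.086 SE, adjusted p = 0.0286) was lost under several alternative settings and when single libraries were left out. MCTP1, a calcium-binding protein with C2 domains, fell in triple KD (-0.61 ± 0.076 SE, adjusted p = 3.43e-10) and in SLTM KD (-0.29 ± 0.073 SE, adjusted p = 0.00419).

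Calls seldom opposed each other between knockdowns. Of the 50 members higher in triple KD, 10 were also higher in SAFB1 KD and 2 lower. Of the 72 lower in triple KD, 21 were also lower in SAFB1 KD and 2 were higher. These 2 were PCDH9, a protocadherin (0.13 ± 0.029 SE, adjusted p = 0.0012 in SAFB1 KD and -0.23 ± 0.03 SE, adjusted p = 1.7e-09 in triple KD), and DLC1, a GTPase-activating protein named because it completes this pair (0.10 ± 0.025 SE, adjusted p = 0.00595 in SAFB1 KD and -0.11 ± 0.025 SE, adjusted p = 0.000268 in triple KD). Members higher in all 3 were ADGRL2, GSE1, TENM3 and TTC28. THSD4, a matrix protein that binds fibrillin, was lower in triple KD (-0.14 ± 0.045 SE, adjusted p = 0.0124) and SAFB1 KD (-0.17 ± 0.046 SE, adjusted p = 0.00742) but higher in SLTM KD (0.13 ± 0.044 SE, adjusted p = 0.044), a call that most alternatives ended. As the 3 comparisons used the same control libraries, a high or low control library would push all of them the same way.

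Common fragile site genes numbered 14 among the members, and in triple KD 6 rose, 3 fell and 5 were not called, with a median log2 fold change of 0.10. In SAFB1 KD 1 of them was higher (7.14%) and none lower, against 7.06% and 14.1% over the 170 members. In SLTM KD none was higher and 2 were lower (14.3%), against 5.88% and 5.29%. With 14 genes these shares rest on few calls, and they were not tested. CNTNAP2 and DIAPH2 fell in triple KD and AUTS2, DMD and PTPRG rose. FHIT, the classic fragile site gene, was at 3.54 ± 0.259 CPM in triple KD and 4.08 ± 0.280 CPM in control (SD, n = 3 each) and was not called (-0.21 ± 0.091 SE, adjusted p = 0.0614). Factors for the transcription and processing of long genes, such as elongation factors, topoisomerases, U1 and cleavage factors, are mostly not members. Of 61 tested, 25 were higher (41.0%) and 15 lower (24.6%) in triple KD, against 30.9% and 36.2% of coding genes at 1 CPM or more. In SAFB1 KD 8 were higher (13.1%) and 4 lower (6.56%), against 9.85% and 7.96%, and in SLTM KD 8 were higher and 8 lower (13.1% each), against 5.91% and 11.3%. Most of these factors were above 50 CPM in control, so that background differs from them in level. Among 4841 coding genes under 500 kb at 50 CPM or more, 37.5% were higher and 36.7% lower in triple KD. The shares there were 16.4% and 7.50% in SAFB1 KD and 8.59% and 15.9% in SLTM KD. These differences were not tested.

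Genes that lie inside an intron of a member were examined because a host of this size carries many. Of 795 such genes annotated, 128 in 81 hosts could be tested, 63 on the same strand as the host and 65 on the opposite strand. In triple KD, 7 of the 63 same-strand genes were called higher and 3 lower, and 7 of the 65 opposite-strand genes were higher and 7 lower. These shares (11.1% and 4.76%, and 10.8% each way) lay under the 19.4% and 20.9% of all genes tested. Most of the nested genes were rare transcripts. Their median log2 fold change in triple KD was 0.31 on the same strand and 0.13 on the opposite strand, against 0.00 in all genes tested. Of the 4 nested coding genes on the same strand, 3 were called higher and 1 lower. Of the 11 on the opposite strand, 3 were higher and 3 lower. These differences were not tested. RPA4, an intronless relative of a replication protein A subunit, lies in an intron of DIAPH2 and had 62, 82 and 70 counts in triple KD, against 26, 36 and 19 counts in control. Its log2 fold change was 1.56 ± 0.22 (SE, adjusted p = 1.59e-08), while that of its host was -0.42. RNF148, a ring finger protein of testis within CADPS2, had 45, 41 and 34 counts in triple KD, against 12, 8 and 13 counts in control (2.02 ± 0.31 SE, adjusted p = 1.27e-07). Its neighbour RNF133, in the same host, had 27, 23 and 24 counts in triple KD, against 0, 8 and 3 counts in control. The host CADPS2, which primes vesicles for release, had a log2 fold change of -0.12. SPTSSA, a subunit of serine palmitoyltransferase inside EGLN3, was abundant at 27.99 ± 1.52 CPM in triple KD and 38.2 ± 2.18 CPM in control (SD, n = 3 each) and fell (-0.45 ± 0.047 SE, adjusted p = 1.65e-12). Reads on the exons of a nested gene from unspliced or extended RNA of a same-strand host cannot be told apart from the nested gene's own RNA in these counts. The nested genes and DIAPH2, CADPS2 and EGLN3 as their hosts were chosen after their values were seen.

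Matches to the siRNA seeds were counted in the longest annotated 3′ untranslated region of each gene. The SAFB1 seed site was found in 56 of the 170 members (32.9%) and in 19.5% of 12146 shorter coding genes, the SAFB2 site in 24.7% and 11.4%, and the SLTM site in 5.29% and 2.42%. The regions were longer in genes with the SAFB1 site, with a median of 4626 bases, against 2723 bases in members without it. In SAFB1 KD, 8 of the 56 members with the SAFB1 site were called lower and 16 of the 114 without it, and the median log2 fold changes were -0.03 in both. Among shorter genes 384 of 2374 with the site and 572 of 9772 without it were called lower in SAFB1 KD. Their regions also differed in length, with medians of 3322 bases with the site and 1285 bases without it. The part that length has in this difference was not tested. SLIT3 and FGF12, both lower in SAFB1 KD, and GSE1, the highest member in triple KD, each hold the SAFB1 site, shown in capitals within the sense strand of the region (GRCh38, SLIT3 at chr5:168661740-169301139, minus strand, FGF12 at chr3:192139390-192767764, minus strand):
SLIT3: tgctcattgagATCAGAAaaaggaataag
FGF12: ggaaaaaataaATCAGAActccataaata
GSE1: gtaatacgacaATCAGAAtacaaaccagt
Some of the 12 members that fell most in triple KD also hold sites: FOXP2 for all 3 siRNAs, CNTNAP2 and CCSER1 for SAFB1 and SAFB2, TENM1 for SAFB1 and CCDC171 for SAFB2. CDH4, RBFOX3, RYR2, TBC1D5, NCKAP5 and SDK1, also among these 12, hold no site for any of the 3 siRNAs. Of the members that rose most, DMD, LRRTM4 and TENM4 hold the SAFB1 site and TENM3 and ADGRL2 the SAFB2 site. PHACTR1, IQCJ-SCHIP1, HS6ST3, RARB and PTPRK hold none. In triple KD, 24 of 56 members with the SAFB1 site were called lower and 48 of 114 without it. For the SAFB2 site these were 20 of 42 and 52 of 128, and for the SLTM site 1 of 9 and 71 of 161. Among shorter genes these counts were 1080 of 2374 and 3315 of 9772 for the SAFB1 site. For the SAFB2 site they were 697 of 1386 and 3698 of 10760, and for the SLTM site 120 of 294 and 4275 of 11852. The regions of shorter genes were longer with each site, with medians of 3605.5 bases with the SAFB2 site and 1401 bases without it. The part that length has in these differences was not tested. A match is a description of the letters and not a measured target site.

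The members just above 500 kb were AFF2, ANO5, DNAH14, CPQ and ERC1 (500.047 to 505.425 kb), with log2 fold changes in triple KD from -0.36 to 0.12. The coding genes just below were DST, RPS6KA2, CACNA2D1, ITPR2 and DIAPH3 (496.844 to 498.346 kb), with -0.81 to 0.22. The members just above 1 CPM were MTUS2, SYN3, ASTN2, LRMDA and ANKS1B (1.001 to 1.58 CPM), with -0.50 to 0.13, and those just below were TAFA2, STXBP5L, DLG2, PTPRN2 and MACROD2 (0.763 to 0.981 CPM), with -0.55 to 0.47. The 3 genes left out by name had log2 fold changes in triple KD of 0.59 (ANK2), 0.31 (ANK3) and 0.11 (CELF2).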

How the data were processed

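Poly(A) RNA from 12 HEK293 libraries, 3 per group, was analysed from the deposited read counts. The authors aligned strand-specific reads with STAR 2.7.9a in 2 passes to GRCh38 with GENCODE v.29 gene models and deposited whole reverse-strand counts per gene, in which reads overlapping 2 genes were not assigned. Reads from introns were therefore counted only where they met an exon of another gene. Spans, exons, nested genes and 3′ untranslated regions were taken from GENCODE v44 on GRCh38, matched by gene ID without version (58207 of 58780 IDs), so spans can differ from the models used for counting. Groups were taken from the sample titles.

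Genes with 10 or more summed counts (26688) were scaled with TMM and tested with edgeR 4.0.16 (quasi-likelihood test, 1 term per group, all 12 libraries, Benjamini-Hochberg adjustment over all genes, threshold 0.05). The SE was taken from the log2 fold change and its F value. Levels are TMM-scaled CPM. The test was checked on simulated data. The depth was 56856228 to 75533510 counts per library, and members near 1 CPM rest on the fewest counts. Members and lists were chosen with earlier results of these data known. The genes named with values were the 12 highest and 12 lowest members in triple KD and the 6 highest and 6 lowest in each single knockdown among those called without overlap of libraries, the 10 longest, those nearest the thresholds, up to 3 per list by adjusted p, DMD and UTRN, except 1 member that is not reported here. Any other gene was chosen after its values were seen. Alternatives were other scalings, filters, DESeq2 1.42.0, limma-voom 3.58.1, only the libraries compared, a replicate block, single libraries left out and other limits on span and level. Counting, tables and figures used R 4.3.3 and Python 3.11.15. The siRNA sequences were read from the study's supplementary tables.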

Additional observations from a re-analysis of the deposited data

How the results depend on the processing

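The counts of members called in triple KD against control and against either single knockdown, and of members lower in each single knockdown, stayed within 1.5 times under the other scalings, filters, tools and sets of libraries and with the replicate block, and were not taken at other limits on span and level. With single libraries left out, triple KD gave 45 to 52 members higher and 65 to 73 lower against control, 44 to 51 and 47 to 55 against SAFB1 KD, and 41 to 48 and 59 to 68 against SLTM KD. SAFB1 KD gave 6 to 11 higher and 24 to 27 lower, and SLTM KD 5 to 12 higher and 7 to 10 lower. The 12 higher in SAFB1 KD became 7 with no filter, 7 without control replicate 1, SLTM KD replicate 2 or triple KD replicate 1 or 2, and 6 without control replicate 3 or SAFB1 KD replicate 2. The 10 higher in SLTM KD became 17 with upper-quartile scaling, 4 with no filter, 6 with limma-voom, 5 without control replicate 1 or SLTM KD replicate 2, and 6 without control replicate 2 or 3 or triple KD replicate 2. The cause was not tested.

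The median log2 fold change of the members in triple KD was -0.0413 with upper-quartile scaling, -0.0230 at a span of 300 kb or more (514 genes), -0.0263 at 1000 kb or more (28 genes), -0.00286 at 5 CPM or more (134 genes) and -0.0555 by the span of the longest coding transcript (149 genes). It was -0.0795 to -0.0670 with single libraries left out. In SAFB1 KD it was -0.00566 at 300 kb, -0.0781 at 1000 kb, -0.00720 at 5 CPM and -0.0427 to -0.0237 with single libraries left out, and in SLTM KD -0.0301 at 1000 kb and -0.00982 to 0.0108. At 5 CPM or more the medians in triple KD and SAFB1 KD were thus near 0.

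The rank correlation with span in triple KD was -0.0426 at 300 kb, -0.0701 at 1000 kb, -0.0432 at 5 CPM, -0.0612 by transcript span, and -0.0215 to -0.00721 with single libraries left out. In SAFB1 KD these were -0.0852, 0.0991, -0.188 and -0.252, with -0.207 to -0.171, so the relation did not extend within the 28 longest. In SLTM KD they were -0.0409, -0.158, -0.0540 and -0.104, with -0.104 to -0.0592. Among the 85 members of lower and the 85 of higher level, a split chosen after seeing the data, it was 0.0987 and -0.0996 in triple KD, -0.160 and -0.247 in SAFB1 KD, and 0.0496 and -0.192 in SLTM KD.

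With the replicate number as a block, 52 members were higher and 74 lower in triple KD, 16 and 26 in SAFB1 KD, and 15 and 10 in SLTM KD, and against the single knockdowns 51 and 55 (SAFB1 KD) and 45 and 69 (SLTM KD). Of 18 same-number pairs of libraries, 13 correlated above 0.1 (range -0.04 to 0.27), among them all 3 of triple KD with control (0.146 to 0.183), but not all pairs of SAFB1 KD or SLTM KD with control. Pairs of different number ran from -0.28 to 0.12, so libraries of the same number tended to deviate together. The labels do not say what these libraries share, and the main fit did not pair them over the 4 groups. The block ended no call of a named gene and added 5.

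Of 105 calls of the 70 named members, 87 held under every alternative and none reversed. The 4 lost in triple KD were RIMS2 (6 alternatives, -0.22 to -0.19), THSD4 (upper-quartile scaling, without control replicate 1 or triple KD replicate 2, -0.12 to -0.08), ANKS1B (without control replicate 2 or triple KD replicate 1, -0.35 to -0.34) and MAGI2 (without triple KD replicate 2, -0.19). In SAFB1 KD the calls lost were PTPRK (14 alternatives, 0.04 to 0.09), GSE1 (11, 0.04 to 0.08), TENM3 (10, 0.06 to 0.08), RARB (without control replicate 2 or SAFB1 KD replicate 1 or 2, -0.26 to -0.22), TBC1D5 (without SAFB1 KD replicate 1 or 3, -0.11 to -0.09), UTRN (without control replicate 3 or SAFB1 KD replicate 2, 0.08) and THSD4 (without SAFB1 KD replicate 1, -0.14). In SLTM KD they were THSD4 (12, 0.11 to 0.15), SYNE1 (11, 0.07 to 0.12), GSE1 (10, 0.06 to 0.08), CNTNAP2 (6, -0.09 to -0.07), FAF1 (4, 0.07 to 0.08), ANKS1B (without SLTM KD replicate 1, -0.45) and SEMA6D (without control replicate 1, 0.13).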
